A study of Saccharomyces cerevisiae with 11 samples.

Results

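The genes described here are 10 components and targets of the mating pheromone response of Saccharomyces cerevisiae: SST2 (YLR452C), GPA1 (YHR005C), FUS3 (YBL016W), STE12 (YHR084W), FAR1 (YJL157C), AGA1 (YNR044W), FIG1 (YBR040W), FIG2 (YCR089W), FUS1 (YCL027W) and FUS2 (YMR232W). They are 10 of the 5756 genes listed in any library. The set was chosen by the strong fall of SST2 in ΔES7S cells, so the strain difference of SST2 is given below as a description with no test. The other 9 genes joined it as members of the same pathway. Both strains are depleted of genomic rDNA and live on rRNA made from a plasmid. In ΔES7S cells the plasmid rRNA lacks expansion segment ES7S, an extra loop in the RNA of the small (40S) ribosomal subunit, and in WT cells it has the wild-type sequence. Cells of both strains were grown in YPD, a rich medium, and the labels name no pheromone treatment. Ribosome-protected fragments (footprints) were sequenced in 3 ΔES7S and 3 WT libraries, and poly(A)-enriched mRNA in 3 ΔES7S libraries (replicates 1 to 3) and 2 WT libraries (replicates 2 and 3). A replicate 1 of WT mRNA was not analysed here. The source labels give both groups 1 parent strain name, the series text gives another, and neither says how many transformants were used.

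In haploid yeast, a peptide pheromone from a cell of the opposite mating type binds a receptor at the cell surface, which frees the βγ dimer of a heterotrimeric G protein from its α subunit Gpa1. The freed dimer starts a MAP kinase cascade that ends at Fus3, which in turn acts on the transcription factor Ste12 and on Far1, the protein that arrests the cell cycle and orients growth toward the partner. Ste12 then raises agglutinins and fusion proteins such as Aga1, Fig1, Fig2, Fus1 and Fus2. Sst2 is an RGS protein: it speeds GTP hydrolysis by Gpa1 and so lets the cell recover from pheromone.

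Library totals ran from 5712239 to 14171383 counts in ΔES7S footprints and from 8103654 to 20262647 in WT footprints, and from 17981273 to 32081744 in ΔES7S mRNA and 43581601 to 57968667 in WT mRNA. Levels are CPM, counts scaled to the same total in each library, and hold no correction for gene length, so they are compared within a gene only. The mating type markers were those of a cells. The 7 a-cell markers (STE2, STE6, BAR1, MFA1, MFA2, AGA2 and ASG7) summed to 298 to 326 CPM in ΔES7S footprints and 357 to 405 CPM in WT footprints, and in mRNA to 349 to 434 CPM in ΔES7S and 477 to 529 CPM in WT. The 4 alpha-cell markers summed to 6.42 to 11.03 CPM in ΔES7S footprints and 9.72 to 12.7 CPM in WT footprints. In mRNA the alpha-cell sum was 46.5 to 56.9 CPM in ΔES7S and 45.3 to 53.3 CPM in WT, most of it the agglutinin gene SAG1 (41.8 to 49.6 CPM in ΔES7S, 42.0 to 47.2 CPM in WT). The defining alpha-factor gene MF(ALPHA)1 did not exceed 1.09 CPM in any library, and MF(ALPHA)2 was listed at 0 in every ΔES7S footprint library and had 2 to 7 counts in WT footprint libraries. The 8 haploid markers, which include GPA1, FUS3 and FAR1, summed to 589 to 613 CPM in ΔES7S footprints and 569 to 645 CPM in WT footprints. In mRNA they summed to 369 to 641 CPM in ΔES7S and 673 to 702 CPM in WT. The 4 markers of sporulating diploids (IME1, IME2, NDT80 and SPO11) summed to 29.6 to 33.3 CPM in ΔES7S footprints and 36.4 to 40.1 CPM in WT footprints, and in mRNA to 27.9 to 43.3 CPM in ΔES7S and 40.0 to 44.9 CPM in WT. The lower a-cell sum in ΔES7S footprints and mRNA moves with the falls given below, and its part in them was not tested.

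SST2 was low in every ΔES7S library of both assays. Its footprints were 2.12, 1.34 and 2.80 CPM in ΔES7S replicates 1 to 3, which rest on 30, 19 and 16 counts, against 15.5, 13.3 and 16.1 CPM in WT replicates 1 to 3, from 126, 270 and 256 counts. The highest ΔES7S library lay far below the lowest WT library. The mean was 2.09 ± 0.731 CPM in ΔES7S and 15.0 ± 1.48 CPM in WT (SD, n = 3 each), a fitted log2 fold change of -2.85 ± 0.24 (SE), or 7.22-fold lower in ΔES7S. Among the 5442 genes fitted in footprints, 1 had a lower log2 fold change. The mRNA fell less. SST2 mRNA was 32.2, 17.9 and 25.2 CPM in ΔES7S replicates 1 to 3 (1034, 340 and 453 counts), against 60.6 and 59.2 CPM in WT replicates 2 and 3 (2639 and 3430 counts). The groups did not overlap, and the ΔES7S libraries spread more widely than the WT pair. The mean was 25.1 ± 7.15 CPM in ΔES7S (SD, n = 3) and 59.9 ± 0.978 CPM in WT (SD, n = 2), a log2 fold change of -1.08 ± 0.18 (SE), or 2.11-fold lower in ΔES7S. The fall in footprints beyond that in mRNA, the difference in translation efficiency, was -1.82 ± 0.29 on the log2 scale, or 3.52-fold lower in ΔES7S. In such bulk samples fewer cells of a type and less RNA per cell cannot be told apart.

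Set against its own mRNA within a strain, SST2 had few footprints in both strains; these values come from the libraries in which its fall was seen and are likewise given with no test. The ratio of mean footprint CPM to mean mRNA CPM was 0.0831 in ΔES7S and 0.251 in WT, where the median of all genes lies near a log2 difference of 0 in either strain. The log2 difference of footprints minus mRNA was -3.74 ± 0.22 (SE) in ΔES7S, 13.4-fold lower, and -1.93 ± 0.18 in WT, 3.80-fold lower. In the order of levels SST2 ran, high to low, WT mRNA, ΔES7S mRNA, WT footprints and ΔES7S footprints, and no neighbours in that order overlapped. The 6 genes beside SST2 on its chromosome in the order of the RefSeq gene table (FPR4, HMG2 and LEU3 on one side, RIF2, FMP27 and PDP3 on the other) differed from it in footprints and mRNA. Their footprint log2 fold changes ran from 0.11 to 0.31 (adjusted p from 0.0729 to 0.617), and their mRNA ones from -0.17 to 0.84 (adjusted p from 0.0615 to 0.804). In translation efficiency they ran from -0.74 for FPR4, on the side of SST2, to 0.44 for FMP27 (adjusted p from 0.0656 to 0.693).

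**Figure D1:**
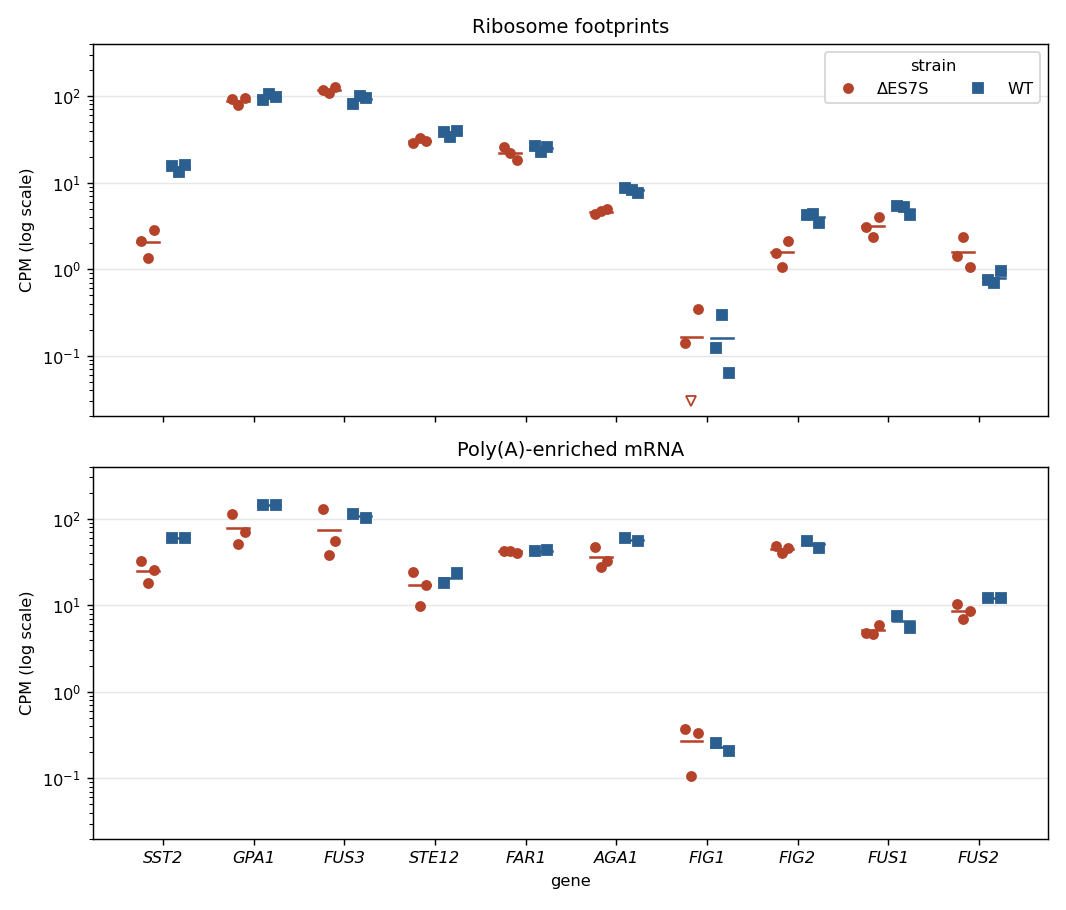
Level of each of the 10 genes in every library (CPM, log axis), footprints above and mRNA below. Circles are ΔES7S libraries, squares WT libraries, horizontal lines group means, and the open triangle marks FIG1 listed at 0 in ΔES7S footprint replicate 2. SST2 footprints were 1.34 to 2.80 CPM in ΔES7S and 13.3 to 16.1 CPM in WT.

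The genes that carry the signal inside the cell had footprint levels much closer between the strains. GPA1, the Gα subunit that Sst2 acts on, had 91.4, 79.7 and 94.0 CPM of footprints in ΔES7S replicates 1 to 3, against 90.3, 105 and 97.8 CPM in WT replicates 1 to 3. Its groups overlapped, and the log2 fold change was -0.07 ± 0.11 (SE; adjusted p = 0.646, edgeR's quasi-likelihood test). FUS3, the MAP kinase of the pathway, had 119, 108 and 129 CPM in ΔES7S, against 81.6, 99.9 and 93.9 CPM in WT. Every ΔES7S library was above every WT library, and FUS3 footprints rose by 0.44 ± 0.12 on the log2 scale (adjusted p = 0.0188). STE12, the transcription factor, had 28.7, 32.4 and 30.6 CPM in ΔES7S, against 38.0, 33.5 and 40.0 CPM in WT. Its groups did not overlap in CPM. With TMM factors they did, ΔES7S replicate 2 lying just above WT replicate 2 (log2 CPM 5.07 against 5.04). The log2 fold change of -0.20 ± 0.11 did not pass (adjusted p = 0.213). FAR1, the arrest protein, had 25.8, 21.9 and 18.2 CPM in ΔES7S, against 26.2, 22.5 and 25.8 CPM in WT, with a log2 fold change of -0.07 ± 0.15 (adjusted p = 0.733).

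Of the cell surface and fusion genes, 2 fell in footprints. AGA1, the anchor subunit of a-agglutinin by which a cells stick to their partner, had 4.30, 4.66 and 4.90 CPM in ΔES7S replicates 1 to 3 (61, 66 and 28 counts), against 8.64, 8.19 and 7.56 CPM in WT replicates 1 to 3 (70, 166 and 120 counts). The groups lay well apart, and AGA1 fell by 0.74 on the log2 scale (SE 0.19, adjusted p = 0.0159). FIG2, a cell wall adhesin of mating cells, had 1.55, 1.06 and 2.10 CPM in ΔES7S (22, 15 and 12 counts), against 4.20, 4.29 and 3.40 CPM in WT (34, 87 and 54 counts). Its highest ΔES7S library was below the lowest WT library, with a log2 fold change of -1.35 ± 0.30 (adjusted p = 0.00917).

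FUS1, a membrane protein of the cell fusion zone, had 3.11, 2.33 and 4.03 CPM in ΔES7S (44, 33 and 23 counts), against 5.31, 5.23 and 4.22 CPM in WT (43, 106 and 67 counts). In CPM the highest ΔES7S library was just under the lowest WT library. With TMM factors the groups overlapped, ΔES7S replicate 3 lying just above WT replicate 3 (log2 CPM 2.03 against 2.02). The log2 fold change of -0.62 ± 0.26 did not pass (adjusted p = 0.098). FUS2, a cytoplasmic protein of cell fusion, lay the other way, with 1.41, 2.33 and 1.05 CPM in ΔES7S (20, 33 and 6 counts), against 0.740, 0.691 and 0.945 CPM in WT (6, 14 and 15 counts). Its groups did not overlap, and at these counts its log2 fold change of 1.16 ± 0.39 was just short of the threshold (adjusted p = 0.0512). FIG1, a membrane protein of calcium entry in mating cells, was nearly without reads: its footprints were 0.141, 0 and 0.350 CPM in ΔES7S (2, 0 and 2 counts), against 0.123, 0.296 and 0.0630 CPM in WT (1, 6 and 1 counts). A count of 0 in ΔES7S replicate 2 allows up to 0.212 CPM, and a difference in FIG1 footprints was not detectable at this depth.

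Of the 9 genes besides SST2, 8 had enough footprints to be tested. FUS3 was higher in ΔES7S, FIG2 and AGA1 were lower, and 5 did not pass. Over all genes tested in footprints 26.9% passed, 14.2% higher and 12.6% lower. The median log2 fold change of the 8 genes was -0.14, against 0.00 over all genes tested. These calls moved with single libraries, and so did the share of all genes passing. That share was 21.4%, 16.8% and 12.5% without WT replicates 1 to 3. It was 27.0%, 13.5% and 32.0% without ΔES7S replicates 1 to 3. FUS3 did not pass without WT replicate 1 (adjusted p = 0.0667) or WT replicate 3 (adjusted p = 0.0742), nor when the mRNA libraries entered the same fit (adjusted p = 0.284). AGA1 did not pass without ΔES7S replicate 2 (adjusted p = 0.0602) or WT replicate 2 (adjusted p = 0.0596), and FIG2 without ΔES7S replicate 2 (adjusted p = 0.0556). FUS2 passed without ΔES7S replicate 1 (adjusted p = 0.047) or ΔES7S replicate 3 (adjusted p = 0.0215), and FUS1 without ΔES7S replicate 3 (adjusted p = 0.0459).

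**Figure D2:**
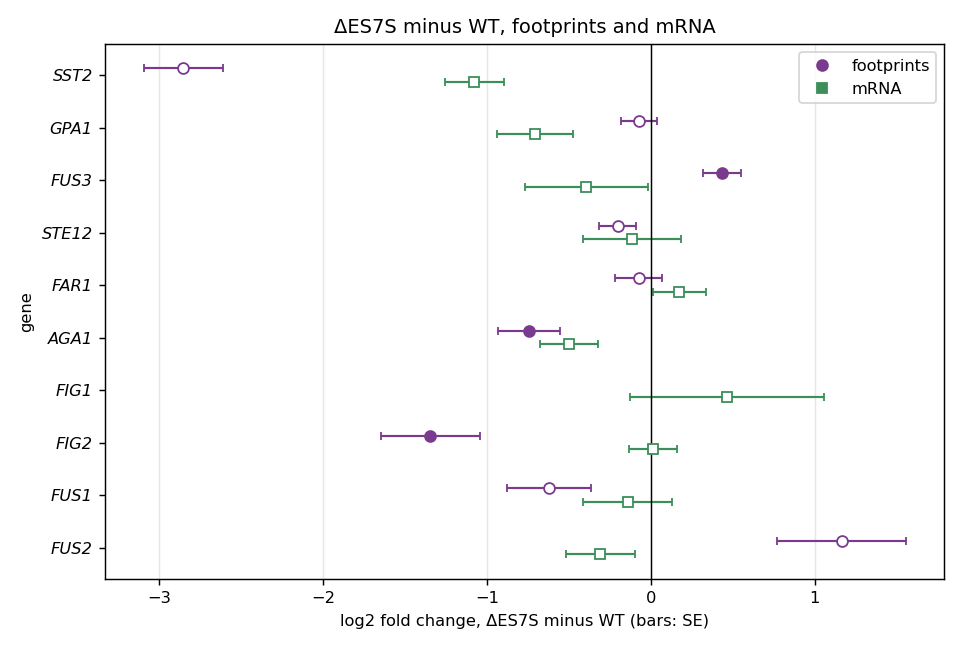
Log2 fold change, ΔES7S minus WT, of footprints (circles) and mRNA (squares) for the 10 genes, with SE as bars. Filled symbols passed an adjusted p of 0.05, SST2 is open because it was not tested, and FIG1 has no footprint value. SST2 lay at -2.85 in footprints and -1.08 in mRNA, while FIG2 lay at -1.35 in footprints and 0.01 in mRNA.

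In mRNA the members besides SST2 did not pass the test, with 6 log2 fold changes below 0 and 3 above it. GPA1 mRNA was 113, 51.0 and 70.6 CPM in ΔES7S replicates 1 to 3, against 143 and 142 CPM in WT replicates 2 and 3. All 3 ΔES7S libraries were below the WT pair and differed among themselves by more than 2-fold, with a log2 fold change of -0.71 ± 0.23 (adjusted p = 0.106). AGA1 mRNA was 47.1, 27.4 and 32.6 CPM in ΔES7S, against 59.3 and 54.9 CPM in WT, again without overlap (-0.50 ± 0.18, adjusted p = 0.122). FUS3 mRNA was 129, 38.5 and 54.6 CPM in ΔES7S, against 112 and 103 CPM in WT. ΔES7S replicate 1 lay above both WT libraries and the other ΔES7S libraries far below them (-0.39 ± 0.38, adjusted p = 0.491). FUS2 mRNA was 10.4, 6.96 and 8.56 CPM in ΔES7S, against 12.2 and 12.1 CPM in WT, without overlap (-0.31 ± 0.21, adjusted p = 0.341). STE12 mRNA was 24.2, 9.81 and 17.2 CPM in ΔES7S, against 17.9 and 23.5 CPM in WT, so that the ΔES7S libraries spanned the WT pair (-0.12 ± 0.30, adjusted p = 0.808).

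FIG2 and FAR1 mRNA were near even between the strains. FIG2 mRNA was 48.1, 39.7 and 46.4 CPM in ΔES7S, against 55.3 and 46.0 CPM in WT (0.01 ± 0.15, adjusted p = 0.953). FAR1 mRNA was 42.4, 42.4 and 40.4 CPM in ΔES7S, against 41.9 and 43.3 CPM in WT (0.17 ± 0.16, adjusted p = 0.477). Its spread was small in CPM but wider with TMM factors, with log2 CPM of 5.33, 5.72 and 5.45 in ΔES7S and 5.24 and 5.33 in WT. FUS1 mRNA was 4.80, 4.64 and 5.95 CPM in ΔES7S, against 7.57 and 5.40 CPM in WT (-0.14 ± 0.27, adjusted p = 0.744). FIG1 mRNA was 0.374, 0.106 and 0.334 CPM in ΔES7S (12, 2 and 6 counts), against 0.252 and 0.207 CPM in WT (11 and 12 counts), with a log2 fold change of 0.46 ± 0.59 (adjusted p = 0.611).

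In mRNA 0 of the 9 genes besides SST2 passed by edgeR in either direction, and 0 by DESeq2 or by limma-voom. An unadjusted p under 0.05 was reached by 2 (GPA1 and AGA1), a smaller share than among all genes tested. Over all genes tested in mRNA 2.76% passed by edgeR, 1.19% higher and 1.57% lower. DESeq2 called 18.5% of them and limma-voom 5.83%. In CPM, ΔES7S mRNA replicate 1 was the highest of the 3 ΔES7S mRNA libraries for 9 of the 10 genes, FUS1 being the other. With TMM factors, as used in the fits, it was the lowest for FIG2 and FAR1. Their log2 CPM were then 5.51 and 5.33 in replicate 1, against 5.63 and 5.72 in replicate 2 and 5.65 and 5.45 in replicate 3. Without ΔES7S mRNA replicate 1, GPA1 (-0.96, adjusted p = 0.00249), FUS3 (-0.94, adjusted p = 0.00295) and AGA1 (-0.65, adjusted p = 0.00696) passed, all lower in ΔES7S. In that fit 44.1% of all genes tested passed. When the footprint libraries entered the same fit, GPA1 (adjusted p = 0.0209) and AGA1 (adjusted p = 0.0376) passed, as did 26.2% of all genes tested.

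The third comparison asks whether footprints per mRNA differed between the strains. FIG2 was lower in ΔES7S: its ratio of mean footprint CPM to mean mRNA CPM was 0.0351 in ΔES7S and 0.0783 in WT, and its translation efficiency fell by 1.41 on the log2 scale (SE 0.29, adjusted p = 0.0157). FUS2 was higher in ΔES7S, with a ratio of 0.184 in ΔES7S and 0.0651 in WT and a log2 difference of 1.43 ± 0.40 (adjusted p = 0.0434). These are the 2 of 8 tested genes besides SST2 that passed, 1 in each direction, where 8.97% of all genes tested passed, 4.63% higher and 4.33% lower. The remaining differences were 0.80 ± 0.40 for FUS3 (adjusted p = 0.203), 0.60 ± 0.24 for GPA1 (adjusted p = 0.131), -0.13 ± 0.30 for STE12 (adjusted p = 0.812), -0.30 ± 0.22 for FAR1 (adjusted p = 0.397), -0.28 ± 0.22 for AGA1 (adjusted p = 0.413) and -0.52 ± 0.37 for FUS1 (adjusted p = 0.373). The median of the 8 genes was -0.21, against -0.01 over all genes tested.

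These calls also moved with single libraries, and for FUS2 with the tool. The share of all genes passing moved as well. It was 8.97% with all libraries, 5.82% and 1.49% without ΔES7S footprint replicates 1 and 2, and 5.46%, 2.37% and 1.23% without WT footprint replicates 1 to 3. Without ΔES7S mRNA replicates 2 and 3 it was 5.77% and 4.03%. The log2 difference of FIG2 ran from -1.16 to -1.55 over all alternatives. FIG2 did not pass without ΔES7S footprint replicate 2 (adjusted p = 0.0657) or WT footprint replicate 2 (adjusted p = 0.0524). Leaving out WT mRNA replicate 2 or 3 left that group unreplicated, and the log2 difference of FIG2 was then -1.52 or -1.30. FUS2 did not pass in 9 of the 11 fits that leave out 1 library, with adjusted p from 0.0522 to 0.149. It passed without ΔES7S mRNA replicate 1 or ΔES7S footprint replicate 3. With all libraries kept, FUS2 did not pass by limma-voom (adjusted p = 0.0604) or with a replicate block (adjusted p = 0.123). Without ΔES7S mRNA replicate 1, FUS3 (1.32, adjusted p = 0.000534) and GPA1 (0.83, adjusted p = 0.00388) passed as well, both higher in ΔES7S, as did 33.1% of all genes tested in either direction.

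Within each strain, AGA1, FIG2 and FUS2 had far lower shares of footprints than of mRNA, and STE12 had a higher one. AGA1 lay at -3.02 ± 0.16 in ΔES7S, 8.14-fold lower in footprints than in mRNA (adjusted p = 2.06e-08), and at -2.74 ± 0.15 in WT, 6.69-fold lower (adjusted p = 5.45e-08). FIG2 lay at -5.01 ± 0.21 in ΔES7S, 32.2-fold lower (adjusted p = 7.19e-09), and at -3.60 ± 0.18 in WT, 12.1-fold lower (adjusted p = 2.70e-08). FUS2 lay at -2.42 ± 0.26 in ΔES7S (adjusted p = 3.33e-06) and at -3.86 ± 0.29 in WT, 14.5-fold lower (adjusted p = 3.19e-07). FUS1, the exception among these genes, lay at -0.84 ± 0.26 in ΔES7S (adjusted p = 0.0114) and at -0.32 ± 0.26 in WT (adjusted p = 0.292). Without ΔES7S footprint replicate 2, FUS1 did not pass in ΔES7S (adjusted p = 0.0642).

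Of the signalling genes, STE12 had more footprints than mRNA in both strains, 0.79 ± 0.20 in ΔES7S (adjusted p = 0.00348) and 0.91 ± 0.22 in WT (adjusted p = 0.00306), and held its call whichever library was left out. FAR1 was lower in footprints, at -1.01 ± 0.15 in ΔES7S (adjusted p = 6.61e-05) and -0.71 ± 0.16 in WT (adjusted p = 0.00211), and also held it. FUS3 was higher in footprints in ΔES7S (0.65 ± 0.27, adjusted p = 0.0441) and not called in WT (-0.15 ± 0.29, adjusted p = 0.672). GPA1 was not called in ΔES7S (0.13 ± 0.16, adjusted p = 0.508) and lower in footprints in WT (-0.47 ± 0.18, adjusted p = 0.0368). The FUS3 call was lost in 10 of the 11 fits that leave out 1 library (adjusted p from 0.053 to 0.162) and kept without ΔES7S mRNA replicate 1. The GPA1 call in WT was lost without WT mRNA replicate 2 or 3, or WT footprint replicate 1 or 3 (adjusted p from 0.0873 to 0.135). GPA1 in ΔES7S passed, higher in footprints, without ΔES7S mRNA replicate 1 (0.36, adjusted p = 0.0175). Of the 8 tested members besides SST2, 7 passed in ΔES7S, 2 higher in footprints and 5 lower, where 72.0% of all genes tested passed, 35.2% higher and 36.7% lower. In WT 6 of 8 passed, 1 higher and 5 lower, where 63.1% passed, 31.5% higher and 31.6% lower. In both strains the members' calls lay more on the lower side than those of all genes. With 8 genes this lean was not tested.

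**Figure D3:**
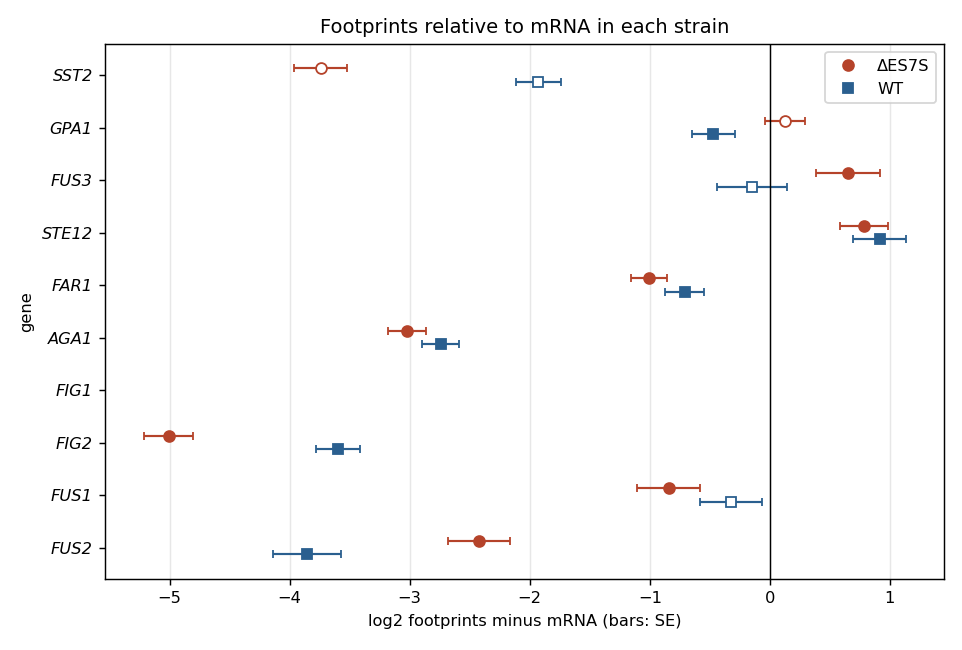
Log2 of footprints minus mRNA within each strain (SE as bars) for the 10 genes, ΔES7S as circles and WT as squares, filled where the adjusted p was under 0.05. SST2 is open because its test within each strain is not reported. FIG1 had too few counts to be fitted. SST2 and FIG2 lie further left in ΔES7S (-3.74 and -5.01) than in WT (-1.93 and -3.60), and FUS2 lies further right in ΔES7S (-2.42) than in WT (-3.86).

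The rest of the pathway was taken as 8 gene lists with 90 listed genes. In footprints 85 of these were tested, 12 were higher in ΔES7S, 9 lower and 64 did not pass, with a median log2 fold change of 0.03 against 0.00 over all genes tested. That is near the 14.2% higher and 12.6% lower of all genes. Of 4 tested ligand and receptor genes 2 fell. MFA1, 1 of the 2 a-factor genes, had 16.6 ± 1.54 CPM in ΔES7S and 29.4 ± 3.51 CPM in WT (SD over 3 libraries each), with -0.75 ± 0.14 on the log2 scale (adjusted p = 0.00348). STE2, the α-factor receptor of a cells, had 109 ± 19.3 CPM in ΔES7S and 150 ± 15.7 CPM in WT (-0.40 ± 0.13, adjusted p = 0.0496). The second a-factor gene MFA2 (0.13 ± 0.10, adjusted p = 0.372) and the a-factor receptor gene STE3 (0.59 ± 0.32, adjusted p = 0.203) did not pass. Of 12 genes that process, export or degrade pheromone 2 fell. BAR1, the secreted protease with which a cells break down α-factor, had 16.9 ± 2.31 CPM in ΔES7S and 31.0 ± 4.25 CPM in WT (-0.77 ± 0.15, adjusted p = 0.00472). STE14, which methylates a-factor, had -0.41 ± 0.12 (adjusted p = 0.0301). MFA1, STE2 and BAR1 are a-cell markers, and of the 7 such markers these 3 fell in footprints, ASG7 rose and 3 did not pass.

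Of 11 genes of the G protein, polarity and MAP kinase cascade, BEM1, a polarity scaffold, rose (0.41 ± 0.12, adjusted p = 0.0296) and STE20, the kinase at the head of the cascade, fell (-0.43 ± 0.10, adjusted p = 0.0108). Of 7 transcription factors and repressors, TEC1, the partner of Ste12 in invasive growth, rose (0.70 ± 0.15, adjusted p = 0.0086), and so did the corepressor gene CYC8 (0.72 ± 0.16, adjusted p = 0.0108). The list's MATALPHA1 and MATALPHA2 were listed in no library. Among 12 genes of desensitisation, feedback and recycling, the functional class of SST2, 2 rose and 0 fell, near the 14.2% higher and 12.6% lower of all genes. AFR1, a regulator of receptor signalling and cell shape, had 97.3 ± 8.07 CPM in ΔES7S and 59.9 ± 1.91 CPM in WT (SD, n = 3 each; 0.78 ± 0.10, adjusted p = 0.00107), and ASG7, an a-specific inhibitor of signalling through Ste4, had 0.57 ± 0.18 (adjusted p = 0.0436).

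The targets that Ste12 or mating raises went both ways. Of 27 tested, 6 rose, 3 fell and 18 did not pass, where 14.2% of all genes tested rose and 12.6% fell. The same background applies to the lists that follow. PRM5, a pheromone-regulated membrane protein gene, had 516 ± 46.9 CPM in ΔES7S and 329 ± 6.67 CPM in WT (SD, n = 3 each; 0.72 ± 0.13, adjusted p = 0.00292). CHS7, which helps chitin synthase leave the endoplasmic reticulum, had 109 ± 0.595 CPM in ΔES7S and 72.1 ± 6.12 CPM in WT (0.67 ± 0.10, adjusted p = 0.00142). The other rises were ECM18 (0.78 ± 0.15), PRM9 (0.76 ± 0.19), CHS6 (0.39 ± 0.10) and RVS161 (0.35 ± 0.11), with adjusted p from 0.00447 to 0.0443, and the falls PRM4 (-0.63 ± 0.14), PRM7 (-0.60 ± 0.15) and the polarity gene PEA2 (-0.50 ± 0.13), with adjusted p from 0.0083 to 0.0195. Of 7 tested invasive growth targets 0 passed by edgeR, DESeq2 or limma-voom. An unadjusted p under 0.05 was reached by 2 of them, and by 2131 of all 5442 genes tested in footprints. SVS1, which drew the most counts of these targets, had 0.32 ± 0.31 (adjusted p = 0.486). Of 5 partners of Far1 in cell cycle arrest, the cyclin-dependent kinase gene CDC28 had 296 ± 48.0 CPM in ΔES7S and 156 ± 4.69 CPM in WT (0.999 ± 0.14, adjusted p = 0.00107), and the G1 cyclin gene CLN2 had 95.1 ± 18.2 CPM in ΔES7S and 153 ± 4.16 CPM in WT (-0.61 ± 0.14, adjusted p = 0.00957).

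In the 6 fits that leave out 1 footprint library, AFR1, BAR1, CDC28, CHS7, ECM18, MFA1, PRM4 and PRM5 passed each time, and the other pathway genes named above lost their call at least once. Without WT replicate 3 or ΔES7S replicate 2 the number called was 10 or 11, where 12.5% and 13.5% of all genes tested passed. With all footprint libraries that share was 26.9%. In mRNA 1 of 88 tested pathway genes passed by edgeR, CDC28 (0.89 ± 0.14, adjusted p = 0.0355), where 2.76% of all genes tested passed. An unadjusted p under 0.05 was reached by 24, a smaller share than among all genes tested. DESeq2 called 12 and limma-voom 1, where they called 18.5% and 5.83% of all genes tested. Without ΔES7S mRNA replicate 1 edgeR called 34, where it called 44.1% of all genes tested, and it called 0 without any other single mRNA library. In translation efficiency STE20 (-0.67 ± 0.17, adjusted p = 0.0329) and the MAP kinase kinase kinase gene STE11 (-0.77 ± 0.20, adjusted p = 0.0387) were lower in ΔES7S, and 86 of 88 did not pass. STE20 lost that call in 7 and STE11 in 9 of the 11 fits that leave out 1 library, while 31 pathway genes passed without ΔES7S mRNA replicate 1, where 33.1% of all genes tested passed. With all libraries 8.97% of all genes tested passed.

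**Figure D4:**
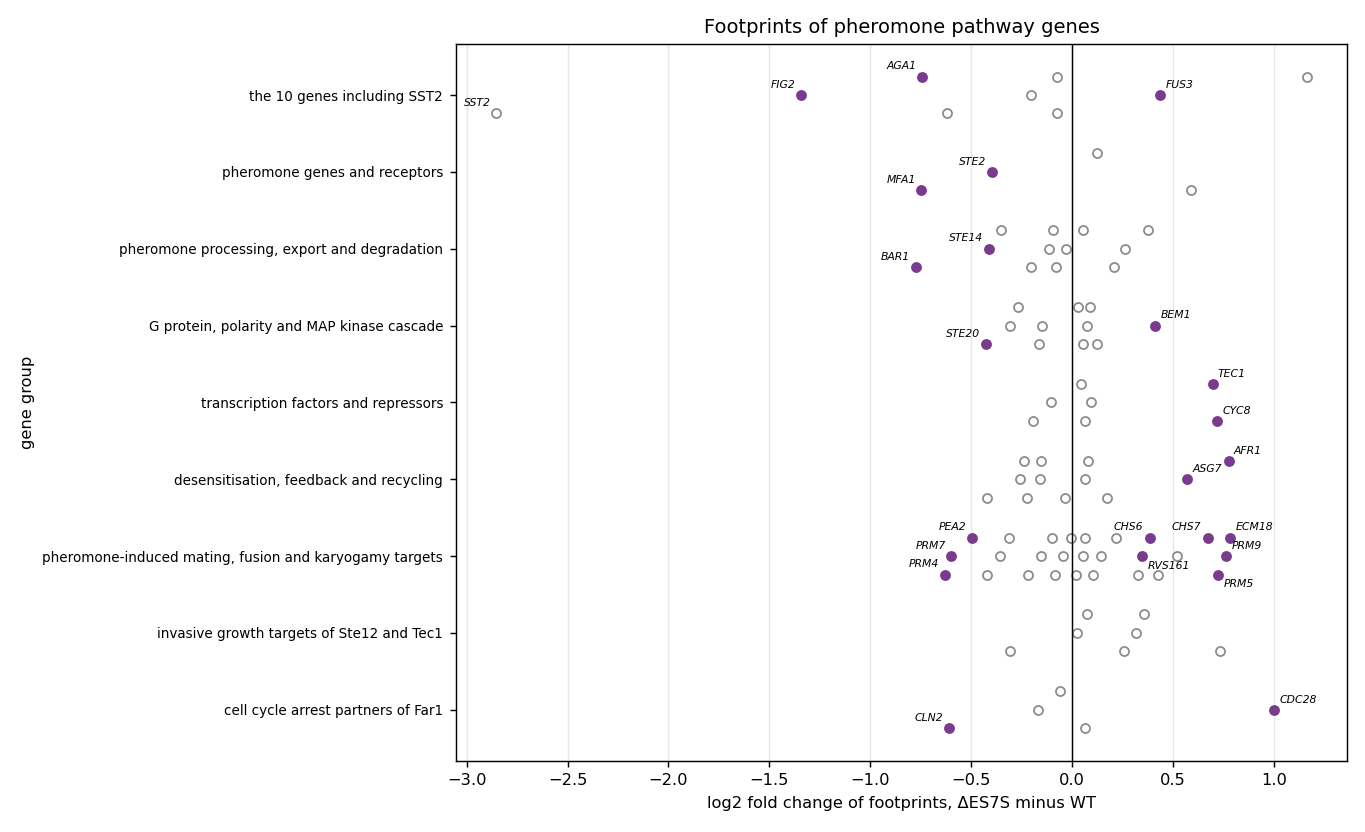
Log2 fold change of footprints, ΔES7S minus WT, for the members and the 8 pathway lists, 1 point a gene, spread vertically for legibility. Filled points passed an adjusted p of 0.05 and are named. SST2, at -2.85, is open because its fall chose the set and it was not tested. The called values of the tested genes run from -1.35 for FIG2 to 0.999 for CDC28.

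Some genes outside the pathway had the pattern of SST2 across the 11 libraries. Over 4835 genes whose log2 CPM averaged 4 or more, and by Pearson's r after the mean of each assay was removed, the 5 most alike were MGA2 (0.974), FOB1 (0.971), YGR079W (0.955), FAA4 (0.954) and TRM2 (0.951). Their footprint log2 fold changes, from -0.40 for FOB1 to -1.04 for YGR079W, were smaller than that of SST2. Among the members AGA1 (0.92), FIG2 (0.885) and FUS1 (0.724) were most alike, GPA1 (0.393) and STE12 (0.39) less so, and FAR1 (-0.0031) and FUS3 (-0.19) lay near 0. FUS2 ran the other way (-0.758). The libraries share strain and depth, so r is a description here.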

How the data were processed

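Per the labels' protocols, footprints came from ribosomes isolated on density gradients, and mRNA was captured on oligo-dT beads and broken at random. Per the submitters' processing notes, FastQC 0.11.7 and Bowtie 1.2.3 were used. Not given in the sources used here are the genome build, the counting program and its use of strand. Sense and antisense reads of a gene can therefore not be told apart. The authors deposited raw counts per gene for each of 11 libraries, with no normalisation. Genes absent from a table were taken as 0. Of 5756 genes, 5752 were matched by systematic name to the RefSeq gene table.

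Counts were fitted in R 4.3.3 with edgeR 4.0.16 (filterByExpr, TMM factors from 0.804 to 1.11, robust quasi-likelihood fit). Footprints and mRNA were each fitted alone for ΔES7S minus WT. Translation efficiency (an assay by strain interaction) and footprints minus mRNA within a strain came from 1 fit of all 11 libraries. The tests are two-sided, adjusted by Benjamini-Hochberg over all genes tested, with a threshold of 0.05. Each SE is the log2 fold change without its sign over the root of F. Levels in CPM use library totals without TMM factors and can give another ratio than the fit. Simulated data with known changes were used to test the fits.

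A planned test of SST2 within each strain is not reported, since it shares libraries with the difference that chose the set. The members and the gene lists were chosen with earlier results of these data known. Named genes were all members, pathway genes with an adjusted p under 0.05 in a strain comparison (or, for a list with none, the tested member with the highest average CPM, which is not corrected for length), the mating type markers and the 5 genes most like SST2. The labels do not say whether replicates are separate cultures, so p-values measure the spread between these samples. With no spike-in named, a change is relative to the rest of the library. Reads carry no molecular identifiers, so the limit for a count of 0 (3 counts) covers counting error only. Alternatives were no low-count filter, RLE and upper-quartile scaling, DESeq2 1.42.0, limma-voom 3.58.1, a replicate block, a joint fit and leaving out each library.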

Additional observations from a re-analysis of the deposited data

Results flagged for a closer look

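For 2 members the effect of assay differed between the strains by the interaction test of the joint fit. FIG2 lay at -5.01 ± 0.21 (log2 footprints minus mRNA, SE) in ΔES7S and at -3.60 ± 0.18 in WT, a difference of -1.41 ± 0.29 (adjusted p = 0.0157). FUS2 lay at -2.42 ± 0.26 in ΔES7S and at -3.86 ± 0.29 in WT, a difference of 1.43 ± 0.40 (adjusted p = 0.0434). The footprint values of FIG2 rest on 12 to 22 counts per library in ΔES7S and 34 to 87 in WT, and those of FUS2 on 6 to 33 counts in ΔES7S and 6 to 15 in WT. Over 17 alternative settings FIG2 ran from -1.16 to -1.55 and FUS2 from 1.04 to 1.61. The part of single libraries in the FUS2 call was given with the result, and no cause was tested.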

How the results depend on the processing

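SST2 stayed lower in ΔES7S under every alternative run, from -2.59 to -3.02 in footprints, -0.96 to -1.22 in mRNA and -1.54 to -1.97 in translation efficiency, with -1.54 without ΔES7S footprint replicate 2. Leaving out 1 library gave 684 to 1749 calls over all genes in footprints (1463 with all), 0 to 2467 in mRNA (155 with all) and 11 to 1848 in translation efficiency (501 with all). For the members besides SST2 these ranges were 1 to 5 in footprints, 0 to 3 in mRNA and 0 to 4 in translation efficiency, and for the pathway genes 10 to 26, 0 to 34 and 0 to 31. In mRNA, edgeR called 0 genes when WT replicate 2 (660 with an unadjusted p under 0.05), WT replicate 3 (766), ΔES7S replicate 2 (1344) or ΔES7S replicate 3 (1034) was dropped. The mRNA count was 1036 by DESeq2, 327 by limma-voom and 1463 in the joint fit, with 2 members and 22 pathway genes called in the joint fit and 12 pathway genes by DESeq2. In translation efficiency DESeq2 called 903 genes and 9 pathway genes, limma-voom 1 member, and upper-quartile scaling 1 pathway gene. In footprints upper-quartile scaling made 702 of 1448 calls higher, and in the joint fit FUS2 passed and FUS3 did not (adjusted p = 0.284). The footprint against mRNA counts within a strain stayed within 1.5 times of 4021 in ΔES7S and 3527 in WT.

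Whether replicate numbers pair the samples could not be settled. Values were centred on each group, which forces the 2 WT mRNA libraries to give r of opposite sign. Between strains, same-numbered footprint libraries had r of 0.0073, 0.032 and 0.094 over 5588 genes, and same-numbered mRNA libraries -0.123 and -0.487. Between footprints and mRNA, same-numbered libraries had 0.043, -0.059 and 0.267 in ΔES7S and 0.119 and -0.020 in WT. Not every sample correlated best with its own number. With a replicate block, 1924 genes, 3 members and 28 pathway genes passed in mRNA, and 313, 1 and 0 in translation efficiency. In footprints 1341 genes passed. For footprints minus mRNA 3957 passed in ΔES7S and 3290 in WT, where GPA1 lost its call (adjusted p = 0.0608). No WT mRNA library carries the number of ΔES7S mRNA replicate 1, so in the mRNA block fit that library adds nothing to the strain difference. The mRNA calls with the block are therefore no separate check from leaving that library out. FUS3, GPA1 and AGA1 had mRNA log2 fold changes of -0.950, -0.973 and -0.655 with the block. Without ΔES7S mRNA replicate 1 they had -0.940, -0.963 and -0.652.

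In 10 cases values not passing with all libraries changed sign. Leaving out 1 library gave -0.21 to 0.035 for FAR1 footprints (positive without ΔES7S replicate 3), -0.34 to 0.095 for FUS1 mRNA (positive without WT replicate 2), -0.090 to 0.12 for FIG2 mRNA (negative without WT replicate 3, and -0.0014 without ΔES7S replicate 3) and -0.36 to 0.12 for STE12 mRNA (positive without WT replicate 3, and 0.10 without ΔES7S replicate 2). It gave -0.36 to 0.096 for STE12 translation efficiency (positive without ΔES7S mRNA replicate 1, and 0.075 without WT mRNA replicate 2) and -0.025 to 0.36 for GPA1 footprints minus mRNA in ΔES7S (negative without ΔES7S mRNA replicate 2). FIG2 mRNA was at -0.055 with upper-quartile scaling. Under the alternatives 626 member values (SST2, untested, included) kept sign and call status, 39 lost and 15 gained a call. Of pathway values 246 kept both and 73 lost a call. The pathway alternatives were chosen after seeing the data. The cause of these changes was not tested. Depth limits FIG1, which had 0 to 6 footprint counts.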
